A study of Mus musculus with 60 samples.

Results

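The sarcomas of a mouse line with the CD74-NRG1 fusion were set against normal brain of the same line, to find which glial and neural genes the tumours share with brain and which are those of the peripheral neural crest. The comparison used every library titled sarcoma and every library titled brain in the tissue count table, 9 of 42 tissue libraries and of 60 libraries in the series. The sarcoma group held 7 libraries from 6 mice (M00235, M00236, M00237, M00238, M00245 and M00248). Mouse M00245 gave 2 sarcoma libraries, T1 and T2, which were summed. The normal brain group held 2 libraries, from mice M00237 and M00238, which also gave a sarcoma each. All mice of both groups were of the line Rosa26CD74-NRG1/Flp. In these animals a fusion of Cd74, a membrane protein, with neuregulin 1 (Nrg1) sits in the Rosa26 locus, and a Flp deleter removes its stop cassette early in the embryo, and its expression is nearly ubiquitous, per the design text. The brains therefore carry the fusion too, and no tissue without the transgene was analysed here. The labels name no agent and state neither the age nor the sex of the animals, nor the site of a sarcoma or the region of a brain. RNA came from cryostat sections of fresh frozen tissue and was read from the 3' end of transcripts (QuantSeq), so levels are given as counts scaled to library size (CPM) and compared for 1 gene at a time.

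Glia have 2 embryonic sources. Schwann cells, the glia of peripheral nerves, arise from the neural crest through precursors that express Sox10, Foxd3 and Erbb3, and they depend on Nrg1 carried by axons. Oligodendrocytes make the myelin of the central nervous system, arise within the neural tube under Olig2, and also use Sox10. A high level of Sox10 alone therefore does not separate the lineages, whereas Foxd3 on one side and Olig2 with the central myelin gene Mobp on the other do.

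These 4 markers separated the tissues without overlap. Among all genes tested, every sarcoma lay above both brains in 34.4% and below both in 22.4%. Foxd3, a transcription factor of the crest and of Schwann cell precursors, had 112 CPM in the lowest sarcoma, a median of 260.1 and 361 in the highest, against 0.128 and 0.507 CPM in brain. Sox10, the regulator of both glial lineages, had 414 to 902 CPM in sarcomas (median 670.1), against 51.5 and 53.3 CPM in brain. Both genes were present in every sarcoma, and in brain Sox10 was present while Foxd3 rested on 5 counts over both libraries. Olig2, the oligodendrocyte factor, had 0.318 to 1.3 CPM in sarcomas (median 0.762), against 30.7 and 32 CPM in brain. Mobp, a protein of central myelin, had 0 to 0.629 CPM in sarcomas (median 0.126), against 573 and 739 CPM in brain. The log2 fold change, sarcoma over brain, was 9.07 for Foxd3 (SE 0.71, adjusted p = 7.3e-06), 3.26 for Sox10 (SE 0.28, adjusted p = 1.1e-05), -5.70 for Olig2 (SE 0.36, adjusted p = 1.7e-06) and -11.95 for Mobp (SE 0.52, adjusted p = 2.1e-07), all by edgeR's quasi-likelihood test with Benjamini-Hochberg adjustment over all genes tested. In whole tissue, fewer cells of a type and less RNA per cell cannot be told apart.

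Total counts were 5745726 to 10880322 per sarcoma mouse, and 7810440 and 7894883 in the brains, so that a count of 0 allows up to 0.276 to 0.522 CPM in sarcomas and 0.384 and 0.38 CPM in brain. Mitochondrial transcripts took 6.83 to 13.4% of sarcoma counts, against 17 and 19.8% in brain. Of 17955 genes tested, 3982 (22.2%) passed an adjusted p of 0.05 as higher and 4685 (26.1%) as lower in sarcoma, 48.3% in all, with a median log2 fold change of 0.10 and a mean of -0.08. Scaled by library totals alone, an alternative chosen after seeing the data, the split was 5342 higher to 3280 lower and the median moved to 0.50. Such a shift is common to all genes and bears on every small fold change. With only 1 brain left, which is then assumed to vary like the sarcomas, 2022 were higher and 3437 lower without brain M00237, and 2363 and 3641 without brain M00238. Every sarcoma lay above both brains in 34.4% of the genes tested, and below both in 22.4%. The tumours also held RNA of other cells. The 12 fibroblast and collagen markers summed to 8634 to 34224 CPM in sarcomas, against 478 and 959 CPM in brain. The 12 skeletal muscle markers summed to 121 to 5909 CPM in sarcomas, against 88.9 and 106 CPM in brain, and 10 epithelial and keratinocyte markers to 342 to 6424 CPM, against 46.6 and 30.7 CPM. Their part in the results was not tested.

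The transcription factors of the peripheral crest were higher in sarcoma nearly throughout. Of 12 listed, 11 could be tested and 10 rose, against 22.2% of all genes, none fell, and in 11 every sarcoma lay above both brains, against 34.4% of all genes. The list's median log2 fold change was 3.49. Not all of these factors were particular to the tumours. Tfap2a reached 37.6 CPM in muscle, Snai1 34.7 and Snai2 19.8 CPM in lung, and Ets1 213 CPM in spleen. Those values lay within or above the sarcoma range. Egr2 in lung and Msx2 in muscle also overlapped with sarcomas. Foxd3, Tfap2b, Pax3, Twist1, Msx1 and Prrx1 stayed below the lowest sarcoma in every library of muscle, lung, liver, spleen and kidney. Tfap2a, an AP-2 factor of early crest, had 24.6 to 45.6 CPM in sarcomas (median 33.4), against 0.512 and 1.27 CPM in brain. Its groups lay far apart, with a log2 fold change of 4.84 (SE 0.41, adjusted p = 1.1e-05). Pax3, which marks crest progenitors, had 19 to 35.7 CPM (median 24.2), against 0.512 and 5.95 CPM in brain, where the 2 libraries differed more from each other, as a ratio, than the sarcomas did. Its log2 fold change of 2.62 (SE 0.69, adjusted p = 0.011) was 2.90 with the mouse as a block, since 2 mice gave both tissues, and did not pass (adjusted p = 0.1). Fold changes of the block fit rest on those 2 mice alone. Snai2, an epithelial to mesenchymal transition factor of migrating crest, had 11.8 to 39.5 CPM (median 22.6), against 0.64 and 1.01 CPM in brain (log2 fold change 4.40, SE 0.48, adjusted p = 5.7e-05). Twist1, of the same kind, had 11.7 to 45.2 CPM (median 26), against 1.92 and 1.52 CPM.

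Ets1, a crest and endothelial factor, was at 55.5 to 125 CPM in sarcomas (median 92.8), against 6.15 and 5.32 CPM in brain. Prrx1, a factor of mesenchyme, was at 101 to 191 CPM (median 138), against 9.47 and 10.1 CPM in brain, and reached 72 CPM in a muscle library. Egr2, also called Krox20, which drives Schwann cells to myelinate, was at 2.87 to 19.8 CPM (median 8.37), against 0.64 and 0.127 CPM in brain (log2 fold change 4.20, SE 0.87, adjusted p = 0.0031). Snai1 rose by 2.80. Msx1 rose by 1.25 (adjusted p = 0.047), and did not pass without the sarcoma of M00236, M00237 or M00248 (adjusted p = 0.071, 0.06 and 0.067), without brain M00237 (0.98, adjusted p = 0.27) or without brain M00238 (1.58, adjusted p = 0.099). Tfap2b, the second AP-2 factor, missed the threshold. It was at 118 to 758 CPM in sarcomas (median 238.4), against 3.58 CPM in brain M00237 and 54.5 CPM in brain M00238, and its log2 fold change was 3.00 (SE 1.15, adjusted p = 0.057). Without brain M00238 the fold change was 6.00 and passed (adjusted p = 0.021), as it did without the sarcoma of M00238 (adjusted p = 0.049). Msx2 was too low to test, with 0.579 to 1.96 CPM in sarcomas and 0.64 and 0 CPM in brain.

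**Figure D1:**
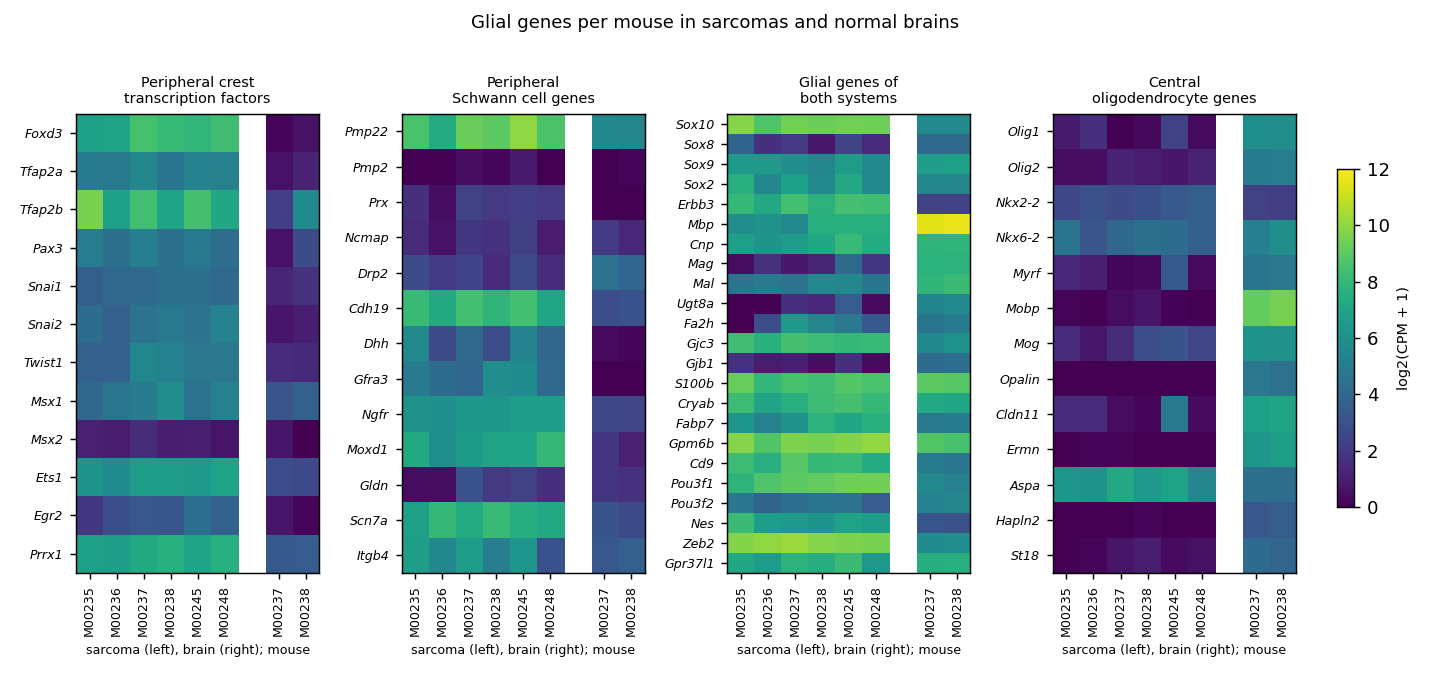
Each row is a gene and each column a mouse, with 6 sarcomas left of the gap and 2 brains right of it, and colour gives log2(CPM + 1) on a scale from 0 to 12. Not every list member is shown. Foxd3 is near 0 in both brains and at 112 to 361 CPM in sarcomas, Mobp and Opalin show the reverse, and the list of genes known from both systems is coloured on both sides.

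Genes of the Schwann lineage were mostly higher in sarcoma, but those of myelin went different ways. Pmp22 and Prx were higher, Drp2 was lower, and Ncmap and Gldn did not pass. Of 14 listed, 13 were tested, 8 rose, 1 fell and 4 did not pass, against 22.2% higher and 26.1% lower among all genes, with a median log2 fold change of 3.68 (3.15 with genes at 0 in brain set to their bound). Cdh19, a cadherin of Schwann cell precursors, had 136 to 338 CPM in sarcomas (median 255), against 6.27 and 7.09 CPM in brain (log2 fold change 4.80, SE 0.43, adjusted p = 1.7e-05). Ngfr, the low-affinity neurotrophin receptor of immature Schwann cells, had 64.7 to 107 CPM (median 78.7), against 5.12 and 4.69 CPM in brain (log2 fold change 3.68, SE 0.25, adjusted p = 2.4e-06). In both, the 6 sarcomas lay close together and far from brain. Gfra3, a receptor for artemin in crest derivatives, had 14 to 59.1 CPM (median 23.8) and no count in either brain, which makes it at least 84-fold higher with 3 counts per brain library as the floor. Dhh, the hedgehog ligand that Schwann cells secrete, had 5.22 to 51.9 CPM (median 15.8), against 0.256 and 0.127 CPM in brain (log2 fold change 6.38, SE 1.38, adjusted p = 0.0046), with an adjusted p of 0.054 without brain M00238.

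Moxd1, a monooxygenase of the dopamine beta-hydroxylase family, had 64.7 to 252 CPM in sarcomas (median 128), against 2.69 and 1.14 CPM in brain. Scn7a, a sodium channel of Schwann cells that do not myelinate, had 107 to 274 CPM (median 172), against 7.68 and 5.32 CPM in brain, and it was also high in lung, up to 444 CPM. Pmp22, a protein of peripheral myelin that other cells also make, had 169 to 1023 CPM (median 452), against 47.1 and 42.8 CPM in brain (log2 fold change 3.07, SE 0.54, adjusted p = 0.0012), and lung had 232 to 368 CPM.

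Prx, which stabilises mature peripheral myelin, had 0.348 to 4.22 CPM in sarcomas (median 3.03) and no count in brain, at least 7.1-fold higher by the floor. Its level was higher in normal lung, at 32.8 to 59.8 CPM, and was 2.87 to 11.7 CPM in muscle. In liver, spleen and kidney Prx stayed at or below 1.38 CPM. Ncmap and Gldn, proteins of myelin and of the node of Ranvier, had medians of 2.01 and 2.6 CPM in sarcomas, overlapped with brain and did not pass (log2 fold changes -0.60 and -0.28, adjusted p = 0.48 and 0.81). Drp2, which links periaxin to the dystroglycan complex, was lower in every sarcoma, with 1.76 to 5.73 CPM (median 3.75), against 21 and 14.1 CPM in brain (log2 fold change -2.63, SE 0.44, adjusted p = 0.00096). Itgb4, a laminin receptor subunit of Schwann cells and of epithelia, had 7.24 to 104 CPM (median 62.5), against 8.45 and 11.7 CPM, and did not pass (adjusted p = 0.063), but did with the mouse as a block (adjusted p = 0.036) and without the sarcoma of M00248 (adjusted p = 0.0024). Pmp2, a lipid carrier of myelin, was too low to test, at no more than 0.827 CPM.

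**Figure D2:**
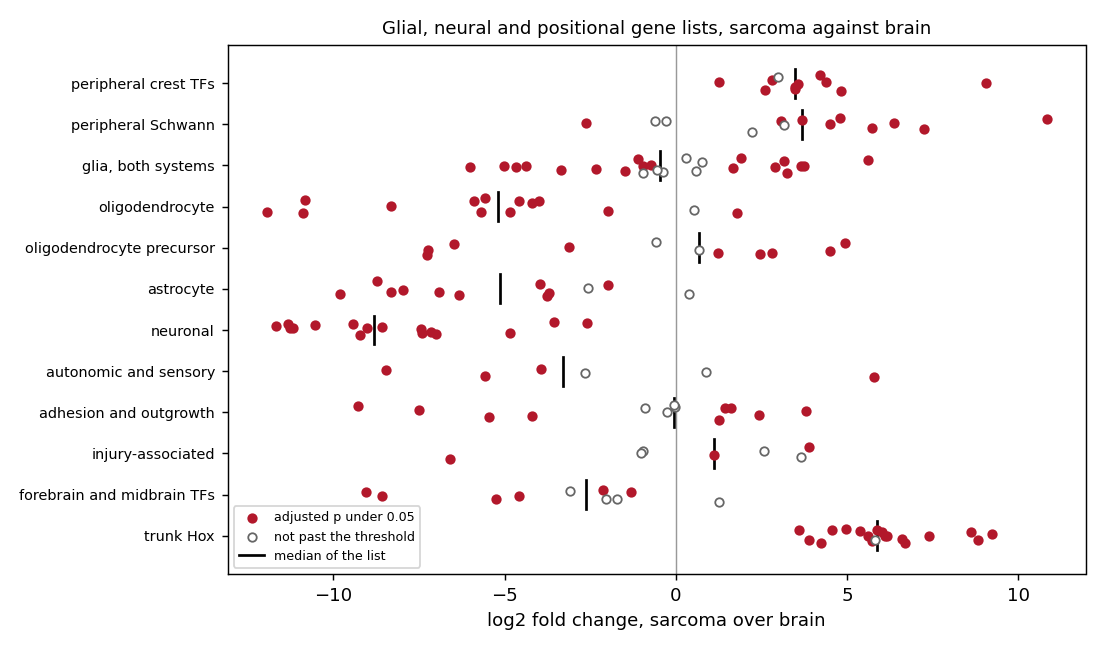
Each point is a tested gene at its log2 fold change, sarcoma over brain, in rows by gene list, filled where the adjusted p was under 0.05 and open where it was not, with a black bar at the list's median. The medians are 3.49 for crest factors and 3.68 for Schwann genes, -5.20 for oligodendrocyte, -5.14 for astrocyte and -8.80 for neuronal genes, and the list of glia of both systems spans 0.

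Genes known from both central and peripheral glia fell into 3 sets. All 24 were tested, and 8 rose, 10 fell and 6 did not pass, against 22.2% higher and 26.1% lower among all genes. The median log2 fold change was -0.45. By library totals, or without either brain, 6 fell. The set that rose held the regulators Sox10, Pou3f1 and Zeb2 among other glial genes, while the regulators Sox8, Sox9 and Pou3f2 fell and Sox2 did not pass. Erbb3, the Nrg1 receptor of the Schwann lineage, had 152 to 352 CPM in sarcomas (median 285), against 4.22 and 4.05 CPM in brain (log2 fold change 5.61, SE 0.33, adjusted p = 1.2e-06). Pou3f1, also called Oct6, a factor of Schwann cells before they myelinate, had 223 to 679 CPM (median 526), against 49.9 and 36.1 CPM (log2 fold change 3.15, SE 0.41, adjusted p = 0.00019). Zeb2, which Schwann cells need to mature, had 765 to 1172 CPM (median 890.5), against 54.8 and 58.3 CPM (log2 fold change 3.67, SE 0.32, adjusted p = 1.2e-05). These 3 separated the tissues with no overlap, and 34.4% of all genes tested likewise had every sarcoma above both brains.

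Gjc3, a connexin of glia, had 194 to 355 CPM in sarcomas (median 290), against 47.4 and 68.5 CPM in brain (log2 fold change 1.90, SE 0.24, adjusted p = 0.00014). Nes, an intermediate filament of neural progenitors, had 73.6 to 293 CPM (median 104), against 8.19 and 6.84 CPM, with M00235 the highest sarcoma. Cd9, a tetraspanin, rose by 2.90 and Fabp7, a lipid carrier of radial glia and Schwann precursors, by 1.67. Fabp7 had 36.2 to 205 CPM (median 106), against 26.8 and 29.1 CPM in brain, and its adjusted p of 0.035 became 0.18 without brain M00237, 0.15 without brain M00238, 0.055 without the sarcoma of M00245 and 0.05 without that of M00248.

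The set that fell held most genes of finished myelin. Mbp, a major protein of myelin in both systems, had 48.5 to 188 CPM in sarcomas (median 126), against 2799 and 3165 CPM in brain (log2 fold change -5.03, SE 0.48, adjusted p = 3.1e-05). Mag, the myelin-associated glycoprotein, had 0.318 to 16.9 CPM (median 1.82), against 200.1 and 209.8 CPM. Ugt8a, which makes the galactolipids of myelin, had 0 to 9.83 CPM (median 0.962), against 41.2 and 51.9 CPM. No sarcoma came near brain in these 3, and M00245 was the highest sarcoma for Mag and Ugt8a. Mal fell by 3.36 and Gjb1, connexin 32 of myelin, by 4.36 on the log2 scale. Pou3f2 fell by 1.47 and Sox8, a relative of Sox10, by 2.34, the last with 0.754 to 13.4 CPM in sarcomas (median 2.55), against 16.4 and 17 CPM in brain. The adjusted p of Sox8, 0.033, was 0.12 without either brain and 0.051 to 0.062 without the sarcoma of M00236, M00237, M00245 or M00248.

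The remaining members differed less. S100b, a calcium-binding protein of glia, had 246.1 to 588 CPM (median 367), against 509 and 477 CPM in brain, and overlapped. Its log2 fold change of -0.73 (SE 0.26, adjusted p = 0.042) became -0.33 (adjusted p = 0.37) by library totals, and its adjusted p was 0.19 without brain M00237, 0.13 without brain M00238 and 0.057 to 0.074 without any sarcoma but that of M00235. Sox9 and Cnp passed as lower by as narrow a margin (-0.95 and -1.10, adjusted p = 0.046 and 0.025) and by library totals they did not pass (-0.60 and -0.68, adjusted p = 0.13 and 0.19). Without brain M00237 their adjusted p was 0.13 and 0.11, and without brain M00238 0.19 and 0.11, and that of Sox9 was 0.052 to 0.077 without the sarcoma of M00237, M00238, M00245 or M00248. Gpr37l1, a receptor of glia, had 83.8 to 289 CPM (median 161), against 178 and 187 CPM (log2 fold change -0.54, 95% interval -1.33 to 0.26). Sox2 had 46.5 to 182 CPM (median 80.9), against 43.3 and 43.2 CPM in brain, Gpm6b 431 to 1072 CPM, against 439 and 368 CPM, and Cryab 129.5 to 348 CPM, against 159 and 147 CPM. None of these 3 passed the threshold. Fa2h, which hydroxylates myelin lipids, had no count in sarcoma M00235 and 89.6 CPM in M00237, against 24.2 and 29.8 CPM in brain.

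**Figure D3:**
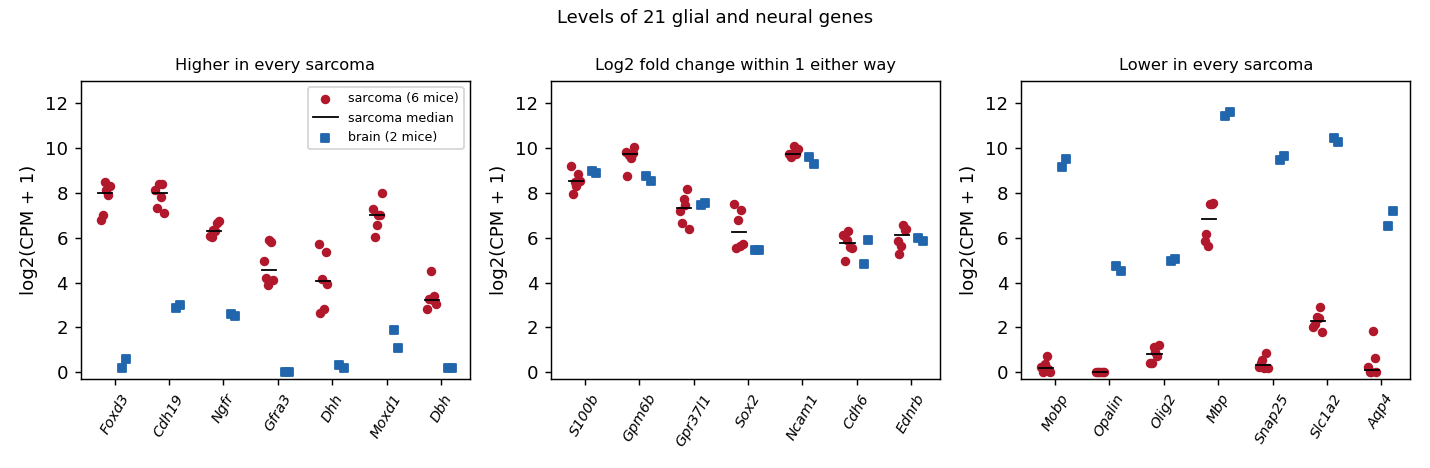
Levels are shown as log2(CPM + 1), with red circles for 6 sarcoma mice, a black bar for their median and blue squares for 2 brains. The left panel holds genes higher in every sarcoma (Foxd3 at 112 to 361 against 0.128 and 0.507 CPM), the middle one genes such as S100b and Ncam1 whose log2 fold changes lie within 1 either way, and the right one genes lower in every sarcoma (Mobp at up to 0.629 against 573 and 739 CPM).

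Genes of oligodendrocytes were nearly all lower in sarcoma. Of 14 listed, 12 fell, 1 rose and 1 did not pass, against 26.1% lower among all genes, and the median log2 fold change was -5.20. Opalin, a membrane protein of central myelin, had no count in any sarcoma, against 26 and 22.3 CPM in brain, which makes it at least 57.1-fold lower with 3 counts per sarcoma as the floor. Ermn, a cytoskeletal protein of oligodendrocytes, had 2 counts over all sarcomas, against 81.8 and 101 CPM in brain (log2 fold change -10.90, SE 0.47, adjusted p = 1.9e-07). Mog, on the surface of central myelin, had 0.696 to 7.45 CPM (median 3.37), against 72.5 and 66.9 CPM. Olig1 had 0 to 4.14 CPM (median 0.543), against 63 and 60.7 CPM, and St18 fell by 5.57 on the log2 scale.

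The sarcoma of M00245 stood above the others for several of these genes, through 1 of its 2 libraries. Cldn11, the claudin of central myelin, had 0.126 to 28.2 CPM in sarcomas (median 1.03), against 113 and 128 CPM in brain, and within M00245 it had 50.3 CPM in T2 and 0.62 CPM in T1. Myrf, the regulator of central myelin genes, had 15.7 CPM in T2 and 0.413 in T1, and a median of 0.667 CPM over sarcomas, against 24.3 and 26.9 CPM in brain. Mag had 30.3 CPM in T2 and 0.207 in T1, and Ugt8a 17.2 and 0.62 CPM. Mobp, Opalin and Ermn did not share this, with 0.166, 0 and 0 CPM in T2 and 0 in T1. Without T2, Cldn11, Myrf, Mag and Ugt8a all passed as lower in sarcoma. With both libraries but 1 brain left, Cldn11 and Myrf did not pass (adjusted p = 0.062 and 0.056 without brain M00237, and 0.064 and 0.059 without brain M00238).

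The 3 oligodendrocyte genes that rose or fell least were Aspa, Nkx2-2 and Nkx6-2. Aspa, which breaks down N-acetylaspartate, had 43.3 to 149 CPM in sarcomas (median 82.4), against 20.6 and 19.2 CPM in brain (log2 fold change 1.80, SE 0.41, adjusted p = 0.0051), and every sarcoma lay above both brains. Nkx2-2, a homeobox factor of the oligodendrocyte lineage, had 4.93 to 11.3 CPM (median 6.73), against 4.22 and 3.67 CPM in brain. Its groups did not overlap, but the log2 fold change of 0.53 did not pass (SE 0.39, adjusted p = 0.29), and muscle and lung had a median of 0 CPM. Nkx6-2 fell by 1.99 but was present in every sarcoma, at 8.01 to 23.4 CPM (median 16.9), against 35 and 62.5 CPM.

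The genes of oligodendrocyte precursors divided evenly. Of 11 tested, 5 rose, 4 fell and 2 did not pass, against 22.2% higher and 26.1% lower among all genes. The median log2 fold change of 0.67 and the mean of -0.73 differ in sign. Vcan, a proteoglycan of the matrix, had 406 to 1392 CPM in sarcomas (median 548), against 15 and 18.6 CPM in brain (log2 fold change 4.95, SE 0.56, adjusted p = 7.8e-05). Cspg4, also called NG2, had 152 to 880.1 CPM (median 342), against 14.6 and 11.5 CPM (log2 fold change 4.52, SE 0.83, adjusted p = 0.0018). Ptprz1, a receptor phosphatase of glial progenitors, had 482 to 786 CPM (median 654), against 179 and 244 CPM (log2 fold change 1.22, SE 0.24, adjusted p = 0.0025). In none of these 3 genes did a sarcoma reach down to brain, which also held for 34.4% of all genes tested. Gpr17, a receptor best known from committed oligodendrocyte precursors, had 26.2 to 212 CPM in sarcomas (median 47.1), against 7.04 and 7.98 CPM in brain, and at most 0.758 CPM in any of 28 other normal libraries. Its log2 fold change of 2.82 (SE 0.89, adjusted p = 0.029) kept its size with 1 brain left, at 2.73 and 2.90, but not the threshold (adjusted p = 0.17 without brain M00237 and 0.14 without brain M00238).

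Sox6, a relative of Sox10 that holds precursors immature, had 122 to 182 CPM in sarcomas (median 170.1), against 21.9 and 24.7 CPM in brain (log2 fold change 2.45, SE 0.29, adjusted p = 9.2e-05). Of the precursor genes that fell, 3 were low in every sarcoma. Lhfpl3 had 0 to 0.368 CPM, against 18.8 and 30.3 CPM in brain, Neu4 1 count in all sarcomas, against 3.71 and 5.7 CPM, and Pcdh15 0.637 to 1.93 CPM, against 6.4 and 7.22 CPM. Pdgfra, the growth factor receptor of these precursors and of fibroblasts, had 22.7 to 76.5 CPM (median 45.3), against 19.5 and 23.6 CPM, and did not pass (adjusted p = 0.2), and C1ql1 overlapped (-0.59, adjusted p = 0.48).

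Astrocyte and neuronal genes were lower almost without exception, against 26.1% lower among all genes. Of 12 astrocyte genes 10 fell and 2 did not pass (median log2 fold change -5.14), and all 16 neuronal genes fell (median -8.80), or 15 with the mouse as a block, where Camk2a did not pass (-6.73, adjusted p = 0.054). Slc1a2, the main glutamate transporter of astrocytes, had 2.46 to 6.53 CPM in sarcomas (median 3.94), against 1412 and 1226 CPM in brain (log2 fold change -8.72, SE 0.30, adjusted p = 7.3e-08). Snap25, a protein of synaptic vesicle fusion, had 0.126 to 0.827 CPM (median 0.254), against 711 and 796 CPM (log2 fold change -11.33, SE 0.41, adjusted p = 7.7e-08). The 2 astrocyte genes that did not pass were Gja1 and Gfap. Gja1, connexin 43, had 101 to 198 CPM, against 83.3 and 90.2 CPM in brain, and up to 213 CPM in muscle.

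Gfap, a filament protein of astrocytes and of Schwann cells that do not myelinate, had 1.13 to 80.5 CPM in sarcomas (median 4.45), against 73.2 and 78.3 CPM in brain. The value of 80.5 CPM was that of M00245, where T2 had 142 CPM and T1 4.13. With all sarcomas the log2 fold change was -2.56 (SE 1.20, adjusted p = 0.11), and without M00245 it was -4.40 (adjusted p = 0.00087) and with the mouse as a block -5.21 (adjusted p = 0.0043). The block value rests on M00237 and M00238, which gave both tissues, and not on M00245. Tubb3, a tubulin of neurons, fell least among the neuronal genes (-2.59, SE 0.43, adjusted p = 0.00087), with 28.4 to 128 CPM in sarcomas (median 42.6), against 270 and 240 CPM in brain. Its highest value was again M00245, with 191 CPM in T2 and 49.8 in T1. Map2 and Uchl1 were also present in every sarcoma, Map2 at 50.3 to 128 CPM, against 808 and 682 CPM in brain, and Uchl1 at 14.6 to 30 CPM, against 467 and 484 CPM.

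Of 12 genes of peripheral autonomic and sensory neurons, 6 could be tested, 1 rose and 3 fell, against 22.2% and 26.1% of all genes. Dbh, which makes noradrenaline in sympathetic neurons, was the 1 that rose, with 6.05 to 22.3 CPM in sarcomas (median 8.48), against 0.128 and 0.127 CPM in brain (log2 fold change 5.80, SE 0.78, adjusted p = 0.00024). No other normal library exceeded 0.995 CPM. Th, the first enzyme of that pathway, had at most 0.629 CPM in sarcomas, against 64.1 and 1.27 CPM in brain, and was chosen after its values were seen. Ret, the receptor subunit for ligands of the GDNF family, had 0 to 1.13 CPM, against 19.5 and 8.87 CPM (log2 fold change -5.58, SE 0.80, adjusted p = 0.00034).

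Cell adhesion molecules of nerve ran from strong falls to strong rises. Of 13 tested, 5 rose, 4 fell and 4 did not pass (median log2 fold change -0.06), and 3 rose without brain M00237. Those counts stand against 22.2% higher and 26.1% lower among all genes. Ncam1, the neural cell adhesion molecule, had 789.5 to 1097 CPM in sarcomas (median 862), against 782 and 624 CPM in brain, and a log2 fold change of -0.01 (95% interval -0.45 to 0.43, adjusted p = 0.97). Cdh6 had 30.3 to 77 CPM (median 53.1), against 27.8 and 58.5 CPM (log2 fold change -0.06, 95% interval -0.81 to 0.69), and Ednrb, the endothelin receptor of crest and of astrocytes, 37.9 to 95.1 CPM (median 68.9), against 63.1 and 57.5 CPM (-0.25, 95% interval -0.87 to 0.36). Their intervals lay within 1 on the log2 scale either way, which held for 5 of 127 glial and neural genes tested (these 3 with Cryab and Gja1), and for 16.3% of all genes. The sign of each is not settled, since by library totals Ncam1, Cdh6 and Ednrb were 0.37, 0.34 and 0.15 higher in sarcoma.

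Of the adhesion genes that rose, Itga4, an integrin subunit of migrating crest, had 85.3 to 109 CPM in sarcomas (median 94.9), against 6.4 and 4.18 CPM in brain (log2 fold change 3.80, SE 0.28, adjusted p = 4.5e-06), and Itga6, a laminin receptor subunit, rose by 2.43. Neither was particular to the tumours. Normal spleen had 92.7 to 139.5 CPM of Itga4 and normal lung 174.7 to 258.8 CPM of Itga6. In every other normal tissue both stayed below the lowest sarcoma. L1cam and Chl1, a related pair, rose by 1.27 and 1.43, and Cdh11 by 1.60. Without brain M00237 the adjusted p was 0.053 for L1cam and 0.065 for Cdh11, and without brain M00238 it was 0.11 for Cdh11. The genes that fell are those of axons and nodes. Cntn1, an axonal contactin, had 0 to 2.56 CPM (median 0.5), against 409 and 480.3 CPM in brain (log2 fold change -9.27, SE 0.66, adjusted p = 6.5e-06), and Nfasc, Gap43 and Nrcam fell by 7.49, 5.46 and 4.20 on the log2 scale.

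Among 8 genes that Schwann cells induce after nerve injury, 7 were tested, 2 rose, 1 fell and 4 did not pass, which is near the 22.2% higher and 26.1% lower among all genes, and 1 rose without either brain. Tnc, the matrix protein tenascin C, had 44.6 to 182 CPM in sarcomas (median 110.1), against 1.15 and 10.4 CPM in brain (log2 fold change 3.90, SE 0.91, adjusted p = 0.0068). Jun, the regulator of the injury response, rose by 1.11 (adjusted p = 0.017, but 0.11 without brain M00237 and 0.093 without brain M00238). Gdnf, a factor for neuron survival, had 0.724 to 19.4 CPM (median 11.3), against 0.64 and 0.633 CPM, with a log2 fold change of 3.66 (SE 1.36) and an adjusted p of 0.05 that did not pass, but was 0.026 without the sarcoma of M00238 and 0.012 without that of M00248. Shh had 2 counts in all sarcomas, against 5.38 and 3.8 CPM in brain.

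Classed by detection, with at least 1 CPM in every mouse of a group, 70 of the 136 glial and neural genes described so far were present in both tissues, 5 in sarcoma alone, 16 in brain alone and 4 in neither, while 41 were detected in part of a group. The classes were not counted over all genes, so whether this sharing is particular to glial and neural genes was not tested. The 5 in sarcoma alone were Foxd3, Egr2, Dhh, Gfra3 and Dbh. In the 28 normal libraries of muscle, lung, liver, spleen and kidney they reached at most 3.65, 11.1, 4.56, 2.15 and 0.995 CPM, so that the lowest sarcoma lay above all of those libraries for Foxd3, Dhh, Gfra3 and Dbh, and not for Egr2. Those in brain alone included Mobp, Opalin, Ermn, Hapln2, Lhfpl3, Neu4, Slc6a11, Snap25, Syn1, Slc17a7, Gad2, Grin1, Th, Prph and Shh, of which Slc17a7, Th and Prph fall outside the naming rule and were chosen after their values were seen. Presence in both tissues did not mean a like level. Among the 70 shared genes, 31 were higher in sarcoma, 21 lower and 18 not past the threshold. Over all genes tested, 22.2% were higher and 26.1% lower. The shared genes with the largest rise were Moxd1, Erbb3 and Vcan, and those with the largest fall Slc1a2, Aldoc and Camk2a.

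Transcription factors of body position also differed. Hox genes mark the trunk and the hindbrain and stay silent in forebrain and midbrain. Of 20 trunk Hox genes, 19 were tested and 18 rose, with a median log2 fold change of 5.89 (5.39 with genes at 0 in brain set to their bound), but only 9 passed without brain M00237 and 7 without brain M00238. Over all genes tested, 22.2% were higher. Summed over the 20 Hox genes, sarcomas had 73.3 to 274 CPM (median 237.7), against 1.79 and 3.04 CPM in brain. The sum was not particular to the tumours, with 380 CPM in kidney and a median of 191 CPM in lung. Its medians were 25 CPM in spleen, 6.2 in muscle and 5.82 in liver. Hoxb7 had 14.8 to 44.5 CPM in sarcomas (median 31.5), against 0.128 and 0.507 CPM in brain (log2 fold change 6.12, SE 0.73, adjusted p = 0.00011). Hoxd8 had 7.68 to 23.6 CPM (median 13.1), against 0.128 and 0.253 CPM, and Hoxb4 11.3 to 25.4 CPM (median 14.6), against 0.512 and 0 CPM. In all 3 genes each sarcoma stood far above both brains, and 34.4% of all genes tested had every sarcoma above both. Kidney had 22.6 CPM of Hoxb7 and 51.3 CPM of Hoxd8, and lung up to 42.5 CPM of Hoxb4, within or above the sarcoma range.

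The sarcoma of M00237, with the lowest sum, lacked part of this code. Its Hoxb4, Hoxb5 and Hoxb7 were at 12.7, 8.58 and 23.2 CPM, within the range of the other sarcomas. Hoxc6, Hoxc8 and Hoxc9, chosen after their values were seen, had 0.903, 0.151 and 0.151 CPM in M00237, while the other 5 sarcomas had 27.2 to 44.9, 11.4 to 32.3 and 15.9 to 43.3 CPM, and brain had 0 and 0.253, 0 and 0.507, and 0.128 and 0.253 CPM. Hoxa7 and Hoxa9, also chosen after their values were seen, had 0.301 and 0.151 CPM in M00237, and 5.65 to 19 and 6.34 to 12.4 CPM in the others. Foxd3 and Sox10 were not low in that tumour, at 361 and 699.5 CPM.

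**Figure D4:**
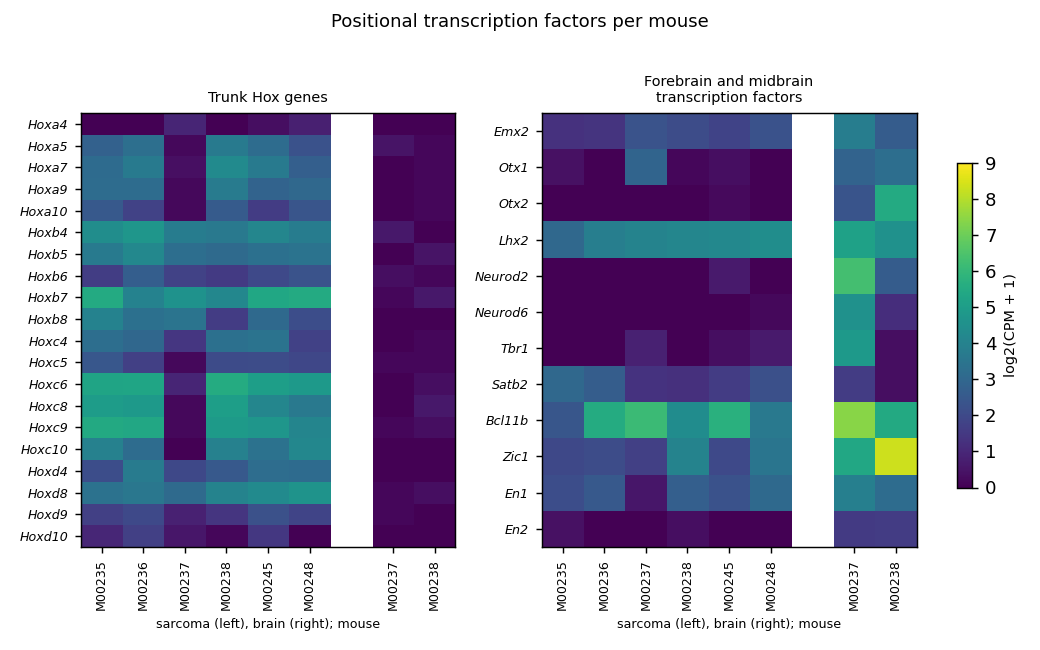
Rows are trunk Hox genes in the left panel and most of the forebrain and midbrain factors in the right one, columns are 6 sarcomas left of the gap and 2 brains right of it, and colour gives log2(CPM + 1) on a scale from 0 to 9. The sarcoma of M00237 is dark for Hoxa and Hoxc genes and not for Hoxb genes, and the 2 brains differ in Neurod2, Tbr1, Zic1 and Otx2.

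Factors of forebrain and midbrain were low in sarcomas and uneven between the brains. Of 13 listed, 10 were tested, 6 fell and none rose, against 26.1% lower and 22.2% higher among all genes (median log2 fold change -2.62). Without brain M00237 4 fell and without brain M00238 9 fell. Otx2 had 2 counts in all sarcomas, against 4.1 CPM in brain M00237 and 44.5 CPM in brain M00238 (log2 fold change -9.05, SE 0.96, adjusted p = 5.5e-05). Zic1 had 2.26 to 15.1 CPM in sarcomas (median 3.12), against 41 and 314 CPM. Neurod2, a factor of cortical neurons, had 0 to 0.551 CPM in sarcomas, against 78.4 and 5.19 CPM. In the same direction as Neurod2, Tbr1 had at most 0.753 CPM in sarcomas, against 28.4 CPM in brain M00237 and 0.253 CPM in brain M00238 (chosen after its values were seen). Markers of choroid plexus and ependyma summed to 14.2 to 43.8 CPM in sarcomas, against 399 and 1657 CPM in brain. The brains thus differed in regional genes, and their part in any result was not tested. Lhx2, a member of this list present in both tissues, had 7.16 to 20.3 CPM in sarcomas (median 16), against 34.8 and 22.6 CPM in brain (log2 fold change -1.32, SE 0.31, adjusted p = 0.0067, or 0.12 without brain M00237).

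The receptors that neuregulins act through were expressed in opposite patterns. Erbb3, which binds Nrg1, is described above. Erbb2, its partner, which binds no ligand, had 18.6 to 37 CPM in sarcomas (median 27.6), against 0.256 and 0.887 CPM in brain (log2 fold change 5.16, SE 0.49, adjusted p = 2.2e-05). Erbb4, the Nrg1 receptor of neurons and heart, had 0 to 0.955 CPM (median 0.15), against 49.2 and 27 CPM in brain (log2 fold change -7.35, SE 0.68, adjusted p = 2.3e-05). Egfr, the receptor for EGF, had 24.4 to 59.5 CPM (median 42), against 6.79 and 10.4 CPM in brain (log2 fold change 1.96, SE 0.38, adjusted p = 0.0021). None of these 4 receptors overlapped between sarcoma and brain. Of all genes tested, 34.4% had every sarcoma above both brains and 22.4% had every sarcoma below both.

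Whether reads of the fusion are counted under mouse Nrg1 or Cd74 is not given in the sources used here. Nrg1 had 15.7 to 74.5 CPM in sarcomas (median 35.4), against 22.9 and 21.1 CPM in brain, and overlapped (log2 fold change 0.42, 95% interval -0.63 to 1.48, adjusted p = 0.48). Cd74, which antigen-presenting cells make at a high level, had 38.2 to 189.8 CPM (median 97), against 8.58 and 5.95 CPM (log2 fold change 3.41, SE 0.54, adjusted p = 0.00072). Of 14 genes listed, which are the ErbB receptors and ligands other than Erbb3, with Cd74, 5 rose, 4 fell and 5 did not pass, against 22.2% higher and 26.1% lower among all genes, and with either brain left out 3 rose and 3 fell. Hbegf, a ligand of Egfr, had 45.3 to 179 CPM (median 59.3), against 16.3 and 16.2 CPM (log2 fold change 1.95, adjusted p = 0.019), but did not pass without brain M00237 (adjusted p = 0.12) or M00238 (0.11). Nrg3 and Tgfa, ligands of Erbb4 and of Egfr, fell by 6.03 and 3.20 on the log2 scale.

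Of 15 tested genes that the ERK pathway induces, most of them its own brakes, 8 rose and none fell, against 22.2% and 26.1% of all genes, and 6 rose without brain M00237, 3 without brain M00238 and 5 with the mouse as a block. Spry1 had 39.3 to 83.8 CPM in sarcomas (median 66.2), against 3.58 and 3.29 CPM in brain (log2 fold change 3.86, SE 0.26, adjusted p = 2.6e-06). Dusp6, a phosphatase of ERK, had 202 to 348 CPM (median 274), against 34.6 and 30.4 CPM (log2 fold change 2.71, SE 0.27, adjusted p = 3.5e-05). Spry2, Spry4 and Etv5 rose by 1.70, 2.28 and 1.13. Spry4 did not pass without brain M00237 (adjusted p = 0.11) or M00238 (0.064), nor Etv5 without brain M00238 (0.21) or with the mouse as a block (0.052). Etv1 and Etv4, 2 related factors, had every sarcoma above both brains but did not pass (log2 fold changes 1.29 and 2.40, adjusted p = 0.17 and 0.065). Etv4 passed without the sarcoma of M00235 (1.72, adjusted p = 0.049) or that of M00238 (adjusted p = 0.042).

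**Figure D5:**
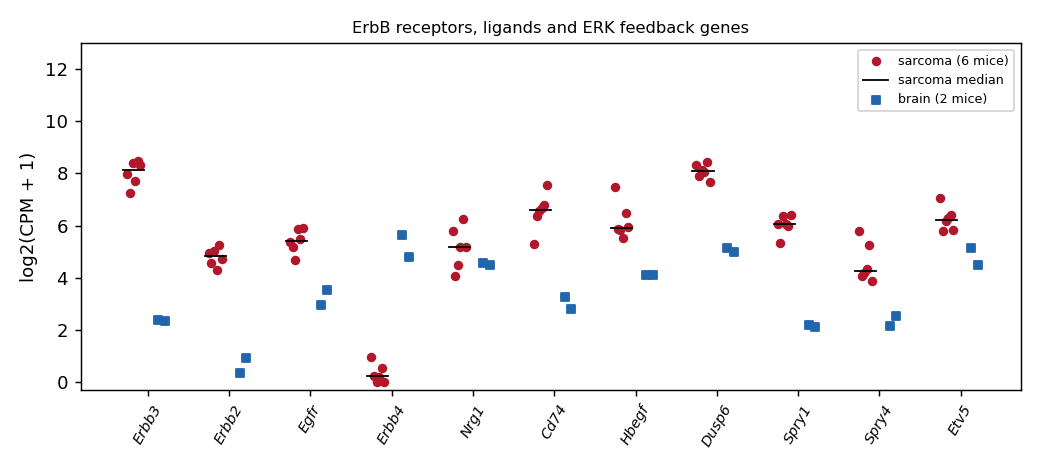
Levels are shown as log2(CPM + 1), with red circles for 6 sarcoma mice, a black bar for their median and blue squares for 2 brains. Erbb3 and Erbb2 lie higher in every sarcoma (152 to 352 against 4.22 and 4.05 CPM for Erbb3), Erbb4 lies higher in both brains, and Nrg1 overlaps.

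All 15 cell division genes rose (median log2 fold change 4.34), and 14 did so without either brain. Over all genes tested, 22.2% were higher. Top2a, which untangles DNA in dividing cells, had 155 to 684 CPM in sarcomas (median 333), against 2.94 and 5.7 CPM in brain (log2 fold change 5.96, SE 0.64, adjusted p = 5.9e-05), and Mki67 100.3 to 309 CPM, against 2.31 and 4.31 CPM. The sarcoma of M00248 was the highest for both genes.

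By the naming rule, the 10 largest rises were those of Sprr2a2, Cstdc5, Klk7, Col28a1, Gfra3, Defb6, Alox12e, Cdca2, Casp14 and Ivl, each without a count in either brain. Sprr2a2, Klk7, Alox12e, Casp14 and Ivl are genes of the outer layers of skin. The sum of epithelial and keratinocyte markers given above was also higher in every sarcoma than in brain. The mice did not rank alike, with Sprr2a2 highest in M00236 and the marker sum highest in M00237 (6424 CPM). Whether they share a source was not tested. Sprr2a2 had 14.1 CPM in the lowest sarcoma and 858 CPM in the highest, and Sprr2a2 is uncertain because reads can be split between it and its close copies. Col28a1, a collagen of nerve sheath glia, had 5.79 to 153 CPM in sarcomas, at least 169-fold higher than brain by the floor, and a median of 0.575 CPM in muscle. The 10 largest falls were those of Chgb, Sst, Sncb, Tceal6, Kcnk9, Cpne6, Adgra1, Kcnd2, Rnf112 and Cartpt, of which 8 had no count in any sarcoma and Sncb and Kcnd2 had 1 each. Chgb, a granule protein of neurons and endocrine cells, had 211 and 208 CPM in brain, so that sarcomas were at least 494-fold lower. Cartpt differed between the brains, with 117 CPM in M00237 and 7.47 CPM in M00238.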

How the data were processed

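Tissue libraries were made with the QuantSeq 3' kit, per the labels' protocols, and no source used here gives the aligner, counting tool or build. The authors deposited a table of expected counts for 54838 gene models, 85 of them without a symbol, in which 8.35% of values were not whole. They were rounded to whole numbers, which moved the total by 0.00054%. The plan had assumed whole counts, and the test was kept. The table held 42 tissue libraries, of which 9 were compared. The 2 sarcoma libraries of M00245 were summed. The authors' CPM tables and 18 fibroblast libraries were not used. CPM was recomputed from the counts.

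Genes passed edgeR's filterByExpr with a minimum count of 10, were scaled by TMM and were tested with edgeR 4.0.16's quasi-likelihood test (glmQLFit and glmQLFTest, R 4.3.3), sarcoma over brain, with Benjamini-Hochberg adjusted p-values over all 17955 genes tested and a threshold of 0.05. Every adjusted p given is from that fit or its refits. The same steps were tested on simulated data. Replicates are mice, and with 2 brains their number limits every test. Floors (3 counts per library) cover counting error only, while intervals of fold changes come from the fit over mice, and reads of the 3' kit were not shown to be separate molecules. No 2 libraries of a group were alike within sampling noise (smallest chi-square per degree of freedom 22.1).

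Mice M00237 and M00238 gave both tissues, so that a fit with the mouse as a block pairs them, and their deviations from the group means correlated at 0.0381 and -0.0261 across genes. Alternatives were other scalings, other filters, leaving out each mouse, the block, all tissues in 1 fit, 1 library of M00245 alone, 4 sarcomas alone, removal of mitochondrial, haemoglobin and immunoglobulin genes, and DESeq2 1.42.0. Named genes were all members of the crest, Schwann, shared glial and oligodendrocyte lists, up to 5 of each other list with the smallest adjusted p, list members detected in both tissues, the fusion genes and ErbB receptors, and the 10 largest changes each way without overlap and at a mean of at least 5 CPM in the higher group. The groups, lists and members were chosen with earlier results of these data known. A few list members are counted but not reported here by name.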

Additional observations from a re-analysis of the deposited data

Results flagged for a closer look

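A value far from the other 5 sarcomas was looked for in 139 of the named genes, and 23 had one. For normally distributed values chance gives about 1 in 20. These CPM values were not on a log scale and were not shown to be normal, so 23 of 139 cannot be read as an excess. Nor does the rate apply to Hapln2, Neu4, Slc17a7, Shh, Otx2 and Neurod2, where the other 5 sarcomas had no count. Of the 23, 11 were in the sarcoma of M00245, 5 in M00235, 3 in M00248, 2 each in M00237 and M00238 and none in M00236.

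The sarcoma of M00245 was the highest for myelin and glial genes, with 16.9 CPM of Mag, 9.83 CPM of Ugt8a, 8.92 CPM of Myrf, 28.2 CPM of Cldn11 and 80.5 CPM of Gfap, all of which came mostly from its library T2. It was also the highest for the neural genes Tubb3 (128 CPM) and Nrcam (21.8 CPM), and the lowest for Sox6 (122 CPM). At the detection limit it was the highest for Pmp2 (0.827 CPM), Otx2 (0.184 CPM) and Neurod2 (0.552 CPM).

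The sarcoma of M00235 was the highest for Tfap2b (758 CPM), Sox8 (13.4 CPM), Nes (293 CPM) and Hbegf (179 CPM), and had a trace of Slc17a7 (0.159 CPM). That of M00248 was the highest for Gpr17 (212 CPM) and Spry2 (147 CPM), with 0.145 CPM of Neu4. That of M00237 stood out for Dbh (22.3 CPM) and, at the limit, Shh (0.301 CPM). That of M00238 had 1.13 CPM of Ret and 0.126 CPM of Hapln2. What sets these values apart was not tested.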

How the results depend on the processing

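Over 19 alternatives and 135 fitted genes named in the text, 2380 of 2548 fold changes kept their direction and side of the threshold, 113 no longer passed, 32 newly passed and 23 changed sign. With 1 brain left 23 genes no longer passed in each refit. Genes past the threshold and higher numbered 2022 to 3950 when 1 mouse was left out, 2022 without brain M00237 and 2363 without brain M00238. Pairing by mouse (the block) gave 2962 higher and 3732 lower, and among named genes it changed only the calls of Pax3, Itgb4, Gfap, Camk2a and Etv5. Its fold changes rest on M00237 and M00238 alone. With detection at 0.5 CPM, genes in sarcoma alone, brain alone and neither numbered 3, 9 and 1, at 2 CPM 8 were in sarcoma alone and 7 in neither, and at 5 CPM the numbers were 10, 28 and 12. With 1 mouse left out 5 to 8 were in sarcoma alone. No sign that changed belonged to a called gene. By library totals, chosen after seeing the data, Cdh6 was 0.34, Ednrb 0.15, Fa2h 0.10, Gldn 0.19 and Ncam1 0.37, and with the block Cdh6 was 0.27, Fa2h 0.73, Gldn 0.43 and Nrg1 -0.15. With 4 sarcomas alone Cdh6 was 0.10 and Ncam1 0.04, and Ncam1 was 0.00 with no filter or without mitochondrial, haemoglobin and immunoglobulin genes, 0.02 with the stricter filter and 0.01 with T2 alone. With 1 mouse left out C1ql1 ran from -1.23 to 0.56, Cdh6 from -0.50 to 0.57 and Ncam1 from -0.17 to 0.16. Except where fewer samples account for it, the cause was not tested.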

Other observations

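Melanocytes are another derivative of the crest. Of 8 of their genes 4 could be tested, 2 rose and 1 fell, and none passed without either brain. Those counts stand against 22.2% higher and 26.1% lower among all genes. Dct, an enzyme of pigment synthesis, had 2.03 to 18.6 CPM in sarcomas (median 10.8), against 0.64 and 1.01 CPM in brain (log2 fold change 3.29, SE 0.84, adjusted p = 0.0094). Normal liver had a like level of Dct, at 4.73 to 14.65 CPM (median 10.5), and muscle, lung, spleen and kidney at most 3.69 CPM. Mitf, the regulator of melanocytes, had 21.3 to 44.6 CPM (median 35.5), against 13.1 and 17.7 CPM (0.79, adjusted p = 0.039), and Kit, the receptor that melanoblasts need, 3.27 to 8.46 CPM (median 6.81), against 12.8 and 7.85 CPM (-1.16, adjusted p = 0.043). Pmel did not pass (adjusted p = 0.21).

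The immune and vessel markers were closer between the tissues. Beside the counts given here, 22.2% of all genes tested rose and 26.1% fell. The 12 macrophage markers summed to 545 to 1782 CPM in sarcomas, against 317 and 316 CPM in brain, and 5 of them rose, but 1 without brain M00237, 2 without brain M00238 and 3 without the sarcoma of M00245. The 9 microglia markers summed to 140.5 to 272 CPM in sarcomas, against 200.5 and 158 CPM in brain, and 1 rose and 3 fell. The 10 endothelial markers summed to 94.9 to 237.8 CPM in sarcomas, against 95.9 and 109 CPM in brain. The 7 lymphocyte markers summed to 14 to 51.7 CPM in sarcomas, against 8.83 and 8.74 CPM in brain, and 6 adipocyte markers to 21.5 to 471 CPM, against 3.46 and 7.22 CPM. The 5 erythroid markers summed to 528 to 2051 CPM in sarcomas, against 15281 and 13847 CPM in brain, and all 5 fell. Within M00245 the skeletal muscle markers summed to 2909.6 CPM in T1 and 53.1 CPM in T2.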
